A study of Homo sapiens with 6 samples.

Results

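A set of 9 transcripts flanking TIPARP on chromosome 3 were followed in DLD-1 cells that lost the nucleoporin TPR while nuclear export through CRM1 was blocked. The members were the genes SSR3, TIPARP-AS1, METTL15P1, PA2G4P4, LEKR1, LINC00880, LINC02029, LINC00881 and CCNL1, which lie between SSR3 and CCNL1, with TIPARP itself left out. They are 9 of the 58051 genes in the count table and 9 of the 16974 genes that passed the filter on low counts, so no member was lost to that filter. The stretch was chosen by the measured LMB+auxin against LMB fold changes of these same libraries. Fold changes and calls of the members in that contrast are therefore given as a description, without a test.

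All 6 libraries came from DLD-1, a human colorectal adenocarcinoma line, with the genotype AID-NeonGreen-TPR. In this line both copies of TPR, which encodes a protein of the nuclear basket of the pore, were edited to carry NeonGreen, a fluorescent protein, and a degron through which auxin triggers destruction of the protein. A cassette for TIR1, the plant F-box protein that the degron needs, was placed at RCC1. Edited clones were genotyped in the study, and both groups here share every edit. The LMB group (3 libraries) received 200 nM Leptomycin B, an inhibitor of the export receptor CRM1, for 3 h. The LMB+auxin group (3 libraries) received Leptomycin B alone for 1 h and then Leptomycin B with 1 mM auxin for 2 h. Titles of the samples state 2 h only. No library without Leptomycin B or with auxin alone was analysed here, so effects of auxin itself and of TPR loss cannot be told apart in this contrast.

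TIPARP encodes a mono-ADP-ribosyltransferase and is a classical target of the aryl hydrocarbon receptor, a ligand-activated transcription factor. SSR3 encodes the gamma subunit of the TRAP complex, which sits beside the protein translocon of the endoplasmic reticulum, and CCNL1 encodes cyclin L1, a regulator of pre-mRNA splicing that partners CDK11 kinases. LEKR1 is a protein-coding gene of poorly described function. The remaining members make no known protein: TIPARP-AS1, LINC00880, LINC02029 and LINC00881 are annotated as long non-coding RNAs, and METTL15P1 and PA2G4P4 as processed pseudogenes, which are copies of spliced mRNAs set back into the genome.

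The interval from SSR3 to CCNL1 spanned 621 kb (GRCh38, chr3:156539553-157160760) and held 15 genes of the table. TIPARP-AS1 and TIPARP start 1.21 kb apart on opposite strands with overlapping spans, and METTL15P1 lies 7.11 kb past the end of TIPARP. PA2G4P4 lies within an intron of the long non-coding gene LINC00886. LINC02029 lies wholly within the span of LINC00880 on the opposite strand, and LINC00881 begins 1.09 kb beyond the end of LINC02029. The span of LINC00881 also overlaps that of LINC00880 on the opposite strand, without shared exonic bases. SSR3, TIPARP-AS1, METTL15P1, PA2G4P4, LINC00880 and CCNL1 are on the minus strand, whereas LEKR1, LINC02029 and LINC00881 are on the plus strand with TIPARP.

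Start regions are shown for 4 members, since genes whose libraries separated by treatment and a bordering gene whose libraries did not can then be read side by side. RefSeq (GRCh38.p14) gave windows for 6 of the 9 members, from 250 bases before to 50 bases after a transcript start. Capitals mark GCGTG on either strand, written CACGC where it is on the other strand, the core of the element bound by the aryl hydrocarbon receptor. The windows are chr3:157081591-157081890 (plus strand) for LINC02029, chr3:156826103-156826402 (plus) for LEKR1, chr3:157089631-157089930 (plus) for LINC00881 and chr3:157160098-157160397 (minus) for CCNL1.
LINC02029: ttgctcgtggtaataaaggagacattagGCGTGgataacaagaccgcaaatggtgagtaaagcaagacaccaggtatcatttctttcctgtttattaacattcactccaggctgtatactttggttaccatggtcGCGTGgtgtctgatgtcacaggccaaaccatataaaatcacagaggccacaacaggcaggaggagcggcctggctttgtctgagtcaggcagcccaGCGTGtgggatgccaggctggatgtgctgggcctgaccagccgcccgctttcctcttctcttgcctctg
LEKR1: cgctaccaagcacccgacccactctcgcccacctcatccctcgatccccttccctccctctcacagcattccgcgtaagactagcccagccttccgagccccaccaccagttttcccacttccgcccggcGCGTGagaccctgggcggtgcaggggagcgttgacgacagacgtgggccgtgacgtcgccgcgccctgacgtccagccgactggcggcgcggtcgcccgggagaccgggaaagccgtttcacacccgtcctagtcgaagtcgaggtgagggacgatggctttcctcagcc
LINC00881: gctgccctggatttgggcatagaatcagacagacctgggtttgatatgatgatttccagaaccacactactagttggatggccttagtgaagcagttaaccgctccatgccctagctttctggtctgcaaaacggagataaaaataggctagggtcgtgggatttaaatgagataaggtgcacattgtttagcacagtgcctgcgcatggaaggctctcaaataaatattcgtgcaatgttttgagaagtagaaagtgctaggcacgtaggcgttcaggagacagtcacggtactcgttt
CCNL1: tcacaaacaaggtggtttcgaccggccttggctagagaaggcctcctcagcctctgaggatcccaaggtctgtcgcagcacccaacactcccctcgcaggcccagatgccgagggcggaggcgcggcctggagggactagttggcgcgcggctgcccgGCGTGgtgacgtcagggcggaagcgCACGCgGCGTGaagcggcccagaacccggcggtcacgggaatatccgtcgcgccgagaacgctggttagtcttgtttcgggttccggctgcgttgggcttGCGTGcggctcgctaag
GCGTG occurred 3 times in the LINC02029 window, 1 time in that of LEKR1, 4 times in that of CCNL1 and not in that of LINC00881. Of the members not shown, SSR3 held it in each of its 3 windows and TIPARP-AS1 did not, so 4 of 6 genes with a window had it. It was present in 36.5% of all 35116 windows in the RefSeq table, so its presence is common. The longer element TNGCGTG, which contains GCGTG, was found in the LINC02029 and CCNL1 windows and in 5.51% of all windows. TGANTCA, a form of the AP-1 site, was found among the members only for LINC02029, and in 7.71% of all windows. Both strands were searched for each motif.

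**Figure D1:**
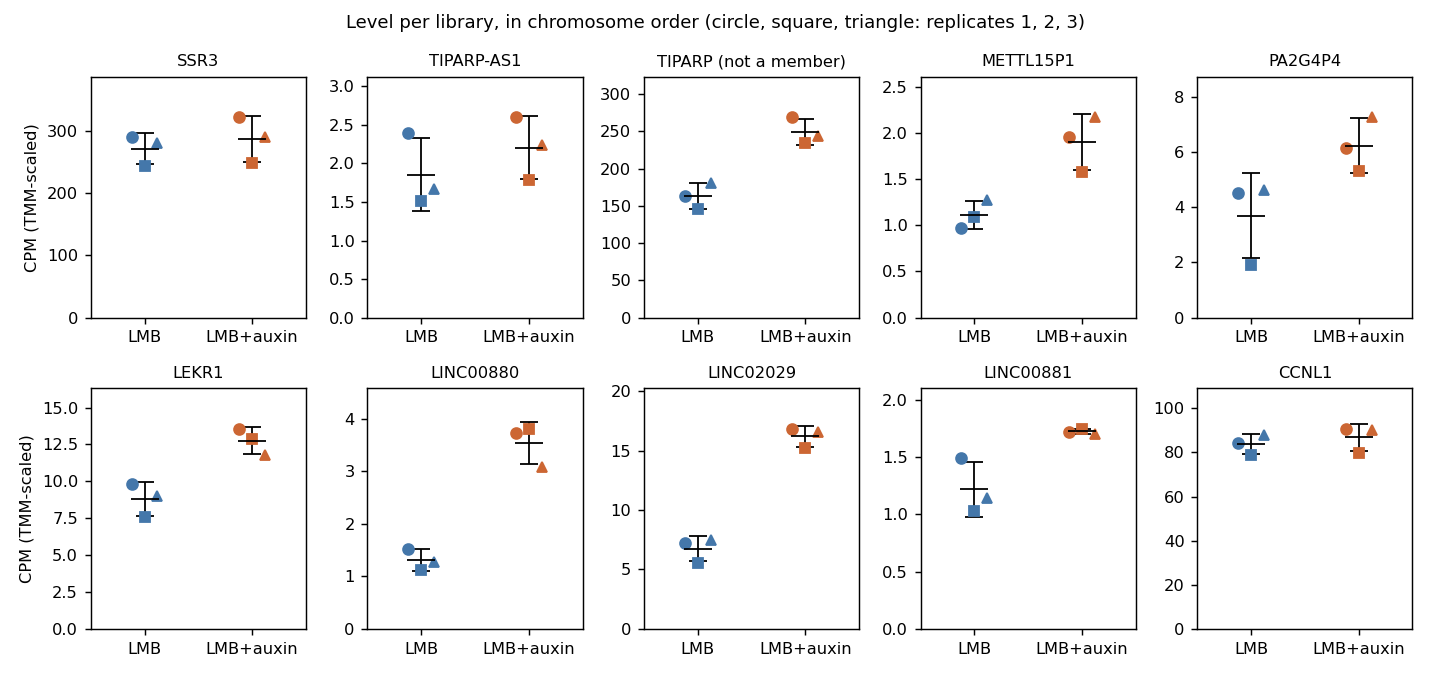
Level of each member and of TIPARP in every library, as CPM (the count relative to the size of its library, after TMM scaling), with panels in chromosome order and each axis starting at 0. Points are libraries, and black bars are the mean ± SD of 3 libraries. The groups did not overlap for METTL15P1, PA2G4P4, LEKR1, LINC00880, LINC02029 and LINC00881, and overlapped for SSR3, TIPARP-AS1 and CCNL1.

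Seen together, the members were higher in LMB+auxin in the middle of the interval and near equal at its ends. The log2 fold change was above 0 for 9 of 9 members with a median of 0.54, beside a median of -0.00 over all genes tested. All LMB+auxin libraries lay above all LMB libraries for 6 of 9 members, and this was so for 4.90% of all genes tested. These counts describe how the members were picked. A call required a difference of 1.3-fold or more together with an adjusted p (Benjamini-Hochberg) below 0.05. By edgeR without a replicate block only LINC02029 met the call, as did 0.00589% of all genes. With replicate numbers as a replicate block, METTL15P1, PA2G4P4, LEKR1, LINC00880 and LINC02029 met it, 5 of 9, beside 1.18% of all genes in either direction and 0.300% in the higher direction. DESeq2 called LINC00880 and LINC02029 without the block (0.0648% of all genes). With the block it called LEKR1 and LINC02029 (0.177% of all genes) and gave no adjusted p for TIPARP-AS1, METTL15P1, PA2G4P4, LINC00880 and LINC00881.

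LINC02029 (ENSG00000241544, chr3:157081738-157088547, 6 exon blocks) had the largest difference per exon length of all members. Its level was 7.21, 5.58 and 7.48 CPM in LMB replicates 1, 2 and 3, and 16.9, 15.2 and 16.6 CPM in LMB+auxin replicates 1, 2 and 3. Every LMB+auxin library was above every LMB library. The means were 6.76 ± 1.03 and 16.2 ± 0.882 CPM (SD, n = 3 each), a 2.40-fold difference (log2 1.26, SE 0.13). Within replicate pairs 1, 2 and 3 the log2 CPM differed by 1.22, 1.44 and 1.14, so each pair gave a similar size.

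LINC00880 (ENSG00000243629, chr3:157081667-157128595) overlaps LINC02029 in its exons, with 1438 exonic bases in common. The shared bases make up 65.1% of LINC00880 and 54.2% of LINC02029. LINC00880 was at 1.53, 1.12 and 1.28 CPM in the LMB libraries and at 3.72, 3.81 and 3.09 CPM in the LMB+auxin libraries, again without overlap. The means of 1.31 ± 0.203 and 3.54 ± 0.393 CPM differed 2.70-fold (log2 1.43, SE 0.18), the largest fold among the members, on counts of 35 to 46 per LMB library and 98 to 111 per LMB+auxin library. Genes nested inside exons of well-expressed genes on the opposite strand had a median count per base of 1.48 times that of the outer gene over 196 such pairs, and of 0.478 times for 81 pairs on the same strand. Counting therefore appears not to have separated strands, and the contributions of LINC00880 and LINC02029 to their shared exons cannot be told apart. LINC02029 had 174 to 269 counts per LMB library and 443 to 526 per LMB+auxin library. If shared reads were counted for both genes, they cannot exceed the LINC00880 counts, so most LINC02029 counts would lie outside the shared exons. Whether reads were counted so is not given.

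LINC00881 (ENSG00000241135, chr3:157089634-157135557) had the lowest level per length. It was at 1.49, 1.03 and 1.14 CPM in the LMB libraries and at 1.72, 1.75 and 1.70 CPM in the LMB+auxin libraries. The groups did not overlap, but LMB replicate 1 came close to the LMB+auxin libraries. Means were 1.22 ± 0.242 and 1.72 ± 0.0248 CPM, a 1.42-fold difference (log2 0.51, SE 0.19), and pair differences were 0.20, 0.73 and 0.55 on the log2 scale. The LMB+auxin counts of 51, 51 and 54 had a CV of 1.44% in CPM, below the 13.9% that counting alone gives, so this small SD understates the error. As the span overlaps that of LINC00880, the part of LINC00880 reads in these levels was not tested.

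LEKR1 (ENSG00000197980, chr3:156825481-157046129) is the longest member, with 17 exon blocks over 221 kb. Its level was 9.84, 7.57 and 8.98 CPM in the LMB libraries and 13.6, 12.9 and 11.8 CPM in the LMB+auxin libraries. The groups were separate, with the smallest gap between LMB replicate 1 and LMB+auxin replicate 3. The means of 8.80 ± 1.15 and 12.8 ± 0.909 CPM differed 1.45-fold (log2 0.54, SE 0.12). Pair 2 had the largest pair difference, 0.76, against 0.46 in pair 1 and 0.39 in pair 3 (log2 CPM).

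METTL15P1 (ENSG00000174912, chr3:156713884-156714928) is a single-exon pseudogene of METTL15, the gene of a mitochondrial rRNA methyltransferase. It was at 0.97, 1.09 and 1.28 CPM in the LMB libraries and 1.96, 1.58 and 2.17 CPM in the LMB+auxin libraries, from 28 to 69 counts a library. The groups did not overlap. The means of 1.11 ± 0.156 and 1.90 ± 0.301 CPM differed 1.70-fold (log2 0.77, SE 0.20), with pair differences of 0.97, 0.51 and 0.74. Its best alignment to a METTL15 transcript covered 603 of its 1045 bases at 99.2% identity, so its level too is uncertain where reads match both copies. The parent METTL15 averaged 20.1 ± 2.38 CPM under LMB and 20.1 ± 2.15 CPM under LMB+auxin (log2 fold change -0.00, SE 0.12, adjusted p = 1.00 by edgeR).

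PA2G4P4 (ENSG00000230457, chr3:156809551-156810732) is a pseudogene of PA2G4, which encodes the ErbB3-binding protein EBP1. It was at 4.54, 1.92 and 4.65 CPM in the LMB libraries and 6.15, 5.32 and 7.27 CPM in the LMB+auxin libraries. The groups did not overlap, and LMB replicate 2 was far below the other LMB libraries. Means were 3.70 ± 1.54 and 6.25 ± 0.982 CPM, a 1.68-fold difference (log2 0.75, SE 0.28), which came to log2 0.45 without LMB replicate 2. The CV of the LMB libraries was 41.6%, whereas counting alone gives 9.15%. Pair differences of 0.43, 1.44 and 0.64 show the same library.

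Over its whole length PA2G4P4 was 97.3% identical to a PA2G4 transcript, with 30 mismatches. PA2G4 averaged 455 ± 31.1 CPM under LMB and 479 ± 25.5 CPM under LMB+auxin (log2 fold change 0.07, SE 0.07, adjusted p = 0.954 by edgeR), and it too was lowest in LMB replicate 2, at 419 CPM. How reads that match both copies were handled is not given in the sources used here. Levels of PA2G4P4 are therefore uncertain, and the part of PA2G4 reads in them was not tested.

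TIPARP-AS1 (ENSG00000243926, chr3:156671859-156674446) is read from the opposite strand to TIPARP. It was at 2.39, 1.51 and 1.67 CPM in the LMB libraries and 2.60, 1.78 and 2.24 CPM in the LMB+auxin libraries. LMB replicate 1 exceeded 2 of the 3 LMB+auxin libraries, so the groups overlapped. The means of 1.86 ± 0.471 and 2.21 ± 0.409 CPM differed by log2 0.26 (SE 0.22), within the spread between libraries, although LMB+auxin was higher in each of the 3 pairs. TIPARP itself, on the other strand, went from 163 ± 17.3 to 249 ± 17.7 CPM (log2 0.61, SE 0.09) without overlap. No exonic bases were shared by these genes in the annotation used, but their spans overlap by 1.21 kb. The strand setting of the counting is not given, but the nested pairs described for LINC00880 gave no sign that strands were separated. The part of TIPARP reads in the level of TIPARP-AS1 was not tested.

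SSR3 (ENSG00000114850, chr3:156539553-156555149) and CCNL1 (ENSG00000163660, chr3:157146508-157160760) form the ends of the interval and are the most abundant members. SSR3 was at 291, 243 and 280 CPM in the LMB libraries and 323, 249 and 291 CPM in the LMB+auxin libraries. CCNL1 was at 84.5, 79.0 and 87.8 CPM in the LMB libraries and 90.9, 80.0 and 90.2 CPM in the LMB+auxin libraries. The groups of both genes overlapped, and replicate 2 was lowest in each group for both. The log2 fold change of SSR3 was 0.08, with an SE of 0.10 without and 0.04 with the replicate block. That of CCNL1 was 0.05, with an SE of 0.08 without and 0.05 with the block. LMB+auxin was higher in each of the 3 pairs for both genes.

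**Figure D2:**
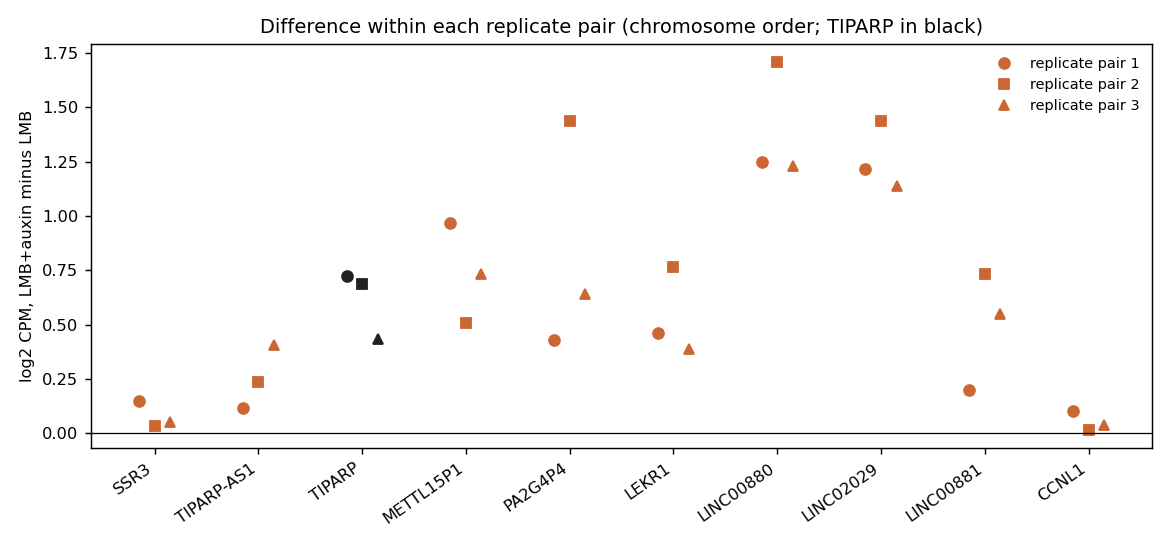
Difference in log2 CPM, LMB+auxin minus LMB, within each pair of libraries with the same replicate number, for the members in chromosome order and for TIPARP (black). All points lie above 0. SSR3 and CCNL1 lie closest to 0, while LINC00880 and LINC02029 lie above 1.1 in every pair, and pair 2 of PA2G4P4 stands apart at 1.44.

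Levels were also compared between members per exon length, as RPKM, which is CPM divided by the exonic kilobases of the gene in GENCODE 44. Reads were counted on Ensembl release 87 genes, so lengths and counts may cover different exons, and orders between members are approximate. In LMB the order was SSR3 (52.4 RPKM), CCNL1 (9.60), PA2G4P4 (3.13), LINC02029 (2.55), LEKR1 (1.58), TIPARP-AS1 (1.40), METTL15P1 (1.07), LINC00880 (0.593) and LINC00881 (0.257). PA2G4P4 and LINC02029 did not differ beyond their SDs, nor did LEKR1 and TIPARP-AS1 or TIPARP-AS1 and METTL15P1. In LMB+auxin LINC02029 (6.11 ± 0.332 RPKM) stood above PA2G4P4 (5.28 ± 0.831 RPKM), but within their SDs, and both stayed below CCNL1 at 9.97 RPKM. METTL15P1 (1.82), TIPARP-AS1 (1.67) and LINC00880 (1.60 RPKM) were then within their SDs of each other. The difference between group means was 3.56 RPKM for LINC02029, 3.07 for SSR3 and 0.107 for LINC00881, beside 17.9 RPKM for TIPARP. A small log2 fold change thus went with one of the larger absolute differences for SSR3, whose SD of 7.10 RPKM in LMB+auxin exceeds that difference.

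The other 5 genes of the interval gave little signal. LINC00886, the long non-coding gene that surrounds PA2G4P4, had 16 to 26 counts a library and was not tested. Its level was 0.901, 0.513 and 0.501 CPM in the LMB libraries and 0.608, 0.549 and 0.504 CPM in the LMB+auxin libraries, which overlap. KLF3P2 and RN7SKP177 were at 0 in every library, and CRADDP1 had at most 1 count. A Y_RNA gene (ENSG00000201778) of 93 bases inside an exon of CCNL1 had a log2 fold change of -0.18 (SE 0.25, adjusted p = 0.957 by edgeR).

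Genes beyond the interval were tested to see how far along the chromosome differences reached. Of 19 tested genes starting within 2 Mb outside the interval, 12 had a log2 fold change above 0 and 7 below 0, with a median of 0.05. The values ran from -0.33 for SHOX2, a homeobox gene, to 0.41 for ENSG00000240207. None of the 19 was called by edgeR (1 at an unadjusted p under 0.05) or with the replicate block (3 at an unadjusted p under 0.05, lowest adjusted p = 0.163), and DESeq2 called 0 in either fit with 0 at an unadjusted p under 0.05. Over all 16974 genes tested, 741 were at an unadjusted p under 0.05 by edgeR and 3376 with the replicate block. All LMB+auxin libraries lay above all LMB libraries for 3 of the 19 flanking genes, or 15.8%, beside 4.90% of all genes tested. They lay below all LMB libraries for 1 of the 19, beside 1125 of all 16974 genes tested.

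The tested gene with the nearest start on the SSR3 side was KCNAB1, a potassium channel subunit gene starting 502 kb outside the interval. It ends at chr3:156539138, beside SSR3. It averaged 3.95 ± 0.291 CPM under LMB and 4.36 ± 0.275 CPM under LMB+auxin (log2 0.14, SE 0.13, adjusted p = 0.954 by edgeR). On the CCNL1 side ENSG00000243176, 13.4 kb outside, was at 2.05 and 2.12 CPM (log2 0.05, SE 0.18, adjusted p = 0.982 by edgeR). Fold changes of KCNAB1 and ENSG00000243176 were thus near those of SSR3 and CCNL1 at the ends of the interval.

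**Figure D3:**
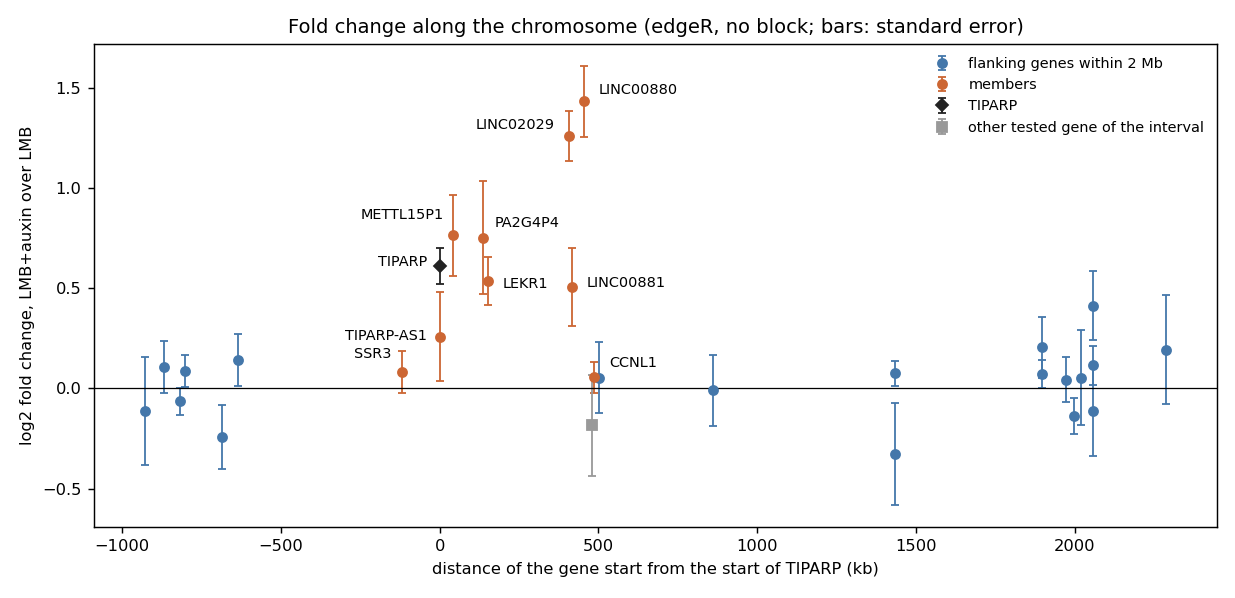
Log2 fold change, LMB+auxin over LMB, of the members, TIPARP, the other tested gene of the interval and the 19 flanking genes, against the distance of the gene start from the start of TIPARP in kb. Bars are standard errors of the edgeR fit without a block. Members from METTL15P1 to LINC00881 lie above 0.5 with TIPARP, whereas flanking genes lie between -0.33 and 0.41.

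Partner and parent genes of the members were then read in the same fit. SSR1, SSR2 and SSR4, which encode the other subunits of the TRAP complex, had log2 fold changes of 0.05, 0.02 and -0.06. CCNL2, the paralog of CCNL1, had -0.10, and the kinase genes CDK11A, CDK11B, CDK12 and CDK13 had -0.01, 0.01, -0.05 and -0.06. With PA2G4 and METTL15 these are 10 genes, of which 0 were called by edgeR or DESeq2 with or without the block, and 0 were at an unadjusted p under 0.05 in either edgeR fit. Their lowest adjusted p was 0.954 by edgeR, and 0.269 with the replicate block.

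**Figure D4:**
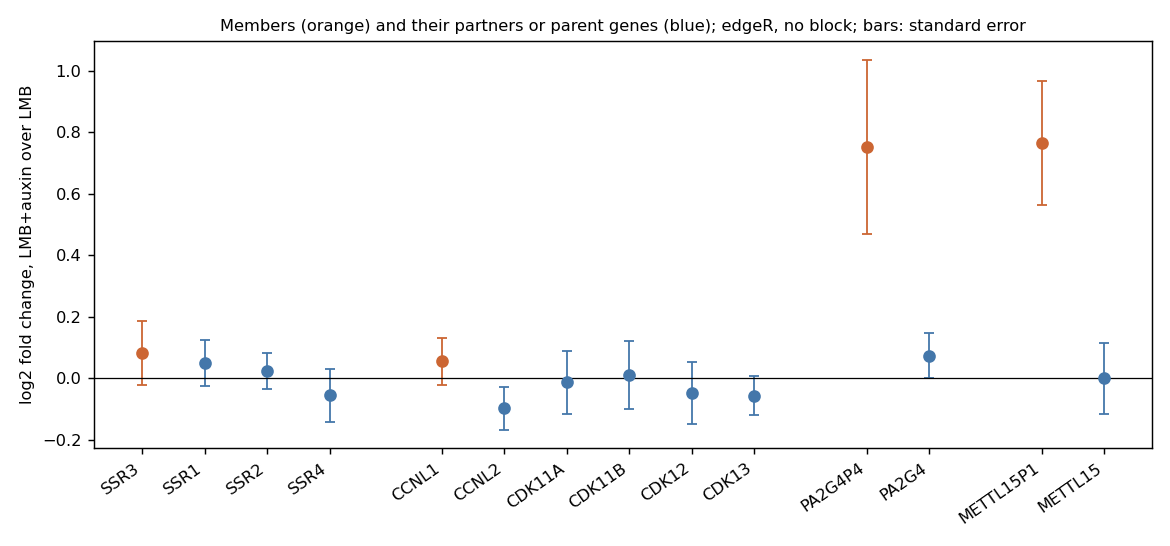
Log2 fold change, LMB+auxin over LMB, of 4 members (orange) beside their partner or parent genes (blue), with standard errors of the edgeR fit without a block. All 10 partner and parent genes lie between -0.10 and 0.07, and the pseudogenes PA2G4P4 and METTL15P1 lie at 0.75 and 0.77.

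Windows around other genes with higher levels in LMB+auxin were examined in the same way as that around TIPARP. Log2 fold changes of these centres were 1.16 for CYP1A1, 0.35 for CYP1B1, 0.88 for HES1 and 0.54 for PRDM1, beside 0.61 for TIPARP. That of CYP1B1 is below the 1.3-fold required for a call. Within 500 kb of the start of TIPARP lay 10 tested genes, the 9 members and the Y_RNA gene, with a median log2 fold change of 0.52. The medians were 0.02 over 21 genes around CYP1A1 and 0.10 over 7 around CYP1B1, which encode cytochromes P450 induced by the aryl hydrocarbon receptor. They were -0.08 over 6 genes around HES1, a transcriptional repressor of Notch signalling, and 0.03 over 3 around PRDM1, another transcriptional repressor. The 4 centres were picked for their own changes in these libraries, and the members for theirs, so the medians are a description. Of those 37 neighbours, 0 were called by edgeR (5 at an unadjusted p under 0.05), 2 by DESeq2 (0.0648% of all genes) and 3 with the replicate block (1.18% of all genes). With the block 10 of the 37 were at an unadjusted p under 0.05. Over all 16974 genes tested these were 741 without and 3376 with the block.

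Those called with the replicate block were CYP1B1-AS1, CLK3 and C15orf39. CYP1B1-AS1, antisense to CYP1B1, averaged 29.0 ± 1.26 CPM under LMB and 41.8 ± 1.23 CPM under LMB+auxin (log2 0.53, adjusted p = 0.174 by edgeR, 3.7e-11 with the replicate block). Counting appears not to have separated strands, and the part of CYP1B1 reads in the level of CYP1B1-AS1 was not tested. CLK3, the gene of a kinase of splicing factors, was at 178 ± 33.1 and 247 ± 15.4 CPM (log2 0.47, adjusted p = 0.954 by edgeR, 4.8e-12 with the replicate block). C15orf39 was lower, at 25.4 ± 1.38 against 18.8 ± 0.651 CPM (log2 -0.43, adjusted p = 0.644 by edgeR, 1.2e-06 with the replicate block).

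LINC02029 served as the reference for likeness across the 6 libraries, which share the 2 treatments and 3 replicate numbers. With 3 libraries a group, r largely restates the difference between treatments by which the members were chosen, and for LINC00880 also the exonic bases it shares with LINC02029. Pearson r of log2 CPM with LINC02029 was 0.98 for LINC00880, 0.95 for LEKR1, 0.92 for METTL15P1, 0.90 for LINC00881 and 0.83 for PA2G4P4. It was 0.56 for TIPARP-AS1, 0.50 for CCNL1 and 0.44 for SSR3, against 0.98 for TIPARP. Outside the interval the 5 highest values belonged to NDUFA10, a complex I subunit gene (0.996), ENSG00000272341 (0.985), ENSG00000257715 (0.982), KDM1A, a histone demethylase gene (0.981), and CYP1B1-AS1 (0.979). Their log2 fold changes ran from 0.06 for NDUFA10 to 1.01 for ENSG00000272341, so likeness in pattern came with unlike sizes.

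Library totals ran from 28261903 to 35992425 counts. Markers of colorectal epithelium (EPCAM, CDH1, KRT8, KRT18, KRT20, CDX2 and VIL1) were all tested and summed to 7090 to 7212 CPM in LMB and 7042 to 7587 CPM in LMB+auxin. PTPRC, PECAM1, COL1A1 and ALB, markers of other cells, summed to 0.811 to 1.22 CPM and none passed the filter. TPR mRNA, which does not report the degraded protein, averaged 167 ± 12.1 CPM under LMB and 188 ± 3.89 CPM under LMB+auxin. In these bulk libraries, a change in the share of cells with a transcript and a change in its level per cell cannot be told apart.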

How the data were processed

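RNA-seq libraries were made from ribosomal RNA-depleted total RNA of 3 independent replicates per group. The authors aligned reads to GRCh38 and deposited raw counts per Ensembl release 87 gene. The submitters' processing notes name CASAVA 1.8.2, STAR 2.6.1c and featureCounts 1.5.2, whereas the study's methods name other versions of the aligner and counter. The strand setting and the handling of reads with several matches are not given in the sources used here. For the strand setting, the nested gene pairs described for LINC00880 gave no sign that strands were separated. Identifiers matched GENCODE 44 for 98.1% of genes, which gave symbols, exons and coordinates, and 0 columns were left out.

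Genes with CPM above 1 in at least 3 libraries were tested by edgeR 4.0.16 (R 4.3.3, TMM scaling, robust quasi-likelihood test), with DESeq2 1.42.0 as an alternative. Code was tested on simulated data. Adjusted p-values are Benjamini-Hochberg values over all tested genes. Without the block, p-values weigh a difference against the spread between these 3 replicates. With the block they weigh it against the spread that remains after differences between replicate numbers are removed. RPKM divides CPM by exonic kilobases. Deviations from the group means correlated at 0.53, 0.69 and 0.27 between libraries with the same replicate number and at -0.57 to 0.15 between others. Libraries of the same replicate number were therefore treated as pairs and a replicate block was fitted. Replicate 3 was the least distinct, at 0.27 with its namesake beside 0.14 and 0.15 for the combinations of replicates 1 and 3. With 3 libraries a group, whose deviations sum to 0, such correlations cannot settle the pairing. Other alternatives were library size alone, DESeq2 size factors, no filter and leaving out each library or pair; the block with DESeq2 and the block without each pair were added after seeing the data. Named genes were all members, TIPARP, TPR, the nearest flanking genes, called neighbours, the partner list and the 5 genes most like LINC02029. SHOX2 and ENSG00000240207 were named for their extreme values, and the 3 called neighbours of other genes after their values were seen. Members and lists were chosen with earlier results of these data known.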

Additional observations from a re-analysis of the deposited data

How the results depend on the processing

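The count of members called moved with the setting. It was 1 by edgeR without a block, 5 with the replicate block, 2 by DESeq2, 2 by DESeq2 with the replicate block, 0 with library size alone and 4 without a filter on low counts. Over all genes tested, calls in the same order numbered 1, 201, 11, 30, 0 and 39. The last was of 39271 genes and the others of 16974. Leaving out 1 library gave 0 to 2 called members, beside 0 to 5 called over all genes tested. The call of LINC02029 was lost without replicate 1 or 3 of either group. The replicate block without pair 1, 2 or 3 called 4, 5 and 4 members, beside 133, 158 and 134 over all genes tested. Neighbours of other genes, 0 called by edgeR, numbered 3 with the replicate block, 2 by DESeq2, 3 by DESeq2 with the replicate block, 3 without a filter, and 2, 3 and 3 with the block and without pair 1, 2 or 3. The cause of these moves was not tested. Flanking, other interval, and partner genes had 0 calls under every setting run, with up to 5, 0 and 3 of them at an unadjusted p under 0.05. The 5 and 3 came with the block and without pair 1, where 2411 of all 16590 genes tested were under 0.05. The sign of a member's log2 fold change was kept in 143 of 144 alternatives, the exception being SSR3 at -0.0088 without LMB+auxin replicate 1. These alternatives refit the same 6 libraries by which the members were chosen, so that count is a description. SSR3 also moved to 0.18 without LMB+auxin replicate 2 and to 0.02 without LMB replicate 2. TIPARP-AS1 moved to 0.47 without LMB replicate 1, and CCNL1 to 0.11 without LMB+auxin replicate 2. Members with fewer than 70 counts in every library, METTL15P1 and LINC00881, carry the widest counting error.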
